A study of Papio anubis with 12 samples.

Results

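The miR-548 family of primate miRNAs was measured by small RNA sequencing in 12 fetal baboons (Papio anubis), from frontal cortex collected at day 165 of gestation. For 6 of them the mother was on nutrient restriction (MNR), at 70% of the feed, per kilogram, eaten by controls. For the other 6 the mother ate the same monkey diet freely (control). Females are replicates 1 to 3 and males replicates 4 to 6 in either diet. Each library came from 1 fetus, and the labels record no pooling. The study set MNR against control cortex to profile canonical and non-canonical miRNAs. Members were all entries of the deposited table whose precursor hairpin is named hsa-mir-548. These were 125 of 2234 entries, from 68 hairpins, and stood for 69 of 1921 mature miRNA names. The names are those of human miRBase, matched to baboon reads.

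The miR-548 hairpins derive from MADE1, a short palindromic transposable element that spread through the genomes of primates. Its inverted repeats fold back on each other, so each copy can give a nearly perfect hairpin that Drosha and Dicer can cut into a 5p and a 3p strand. Copies are numerous and young, and their mature strands differ by few bases. In human cells several members have been reported to act on a type III interferon mRNA, and most members have no established role.

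Values are reads per 1000000 counted reads (RPM), the unit the authors deposited, and whole reads recovered from the RPM steps. The libraries held 1078720 to 1464660 counted reads in MNR and 513029 to 1898763 in control, and 1 read was worth 0.527 to 1.95 RPM. Neural miR-9-5p stood at 67987 to 87196 RPM in MNR and 64302 to 88752 RPM in control libraries. Neural miR-124-3p stood at 8440 to 10718 RPM in MNR and 7463 to 12272 RPM in control. All libraries thus held neural miRNAs, which do not by themselves tell frontal cortex from other neural tissue. With totals of this size the family lay near the detection limit. With names of equal values counted once, its members together held 472 reads, of which some may be counted under several names. The counted total was 15411512 reads, in which repeated entries are included.

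The table gave equal values to several names of the family. The 44 names with at least 1 read gave 31 distinct profiles, a profile being a set of names with equal values in all 12 libraries, and 7 profiles were shared by several names. The most abundant profile carried the names miR-548c-5p, miR-548o-5p, miR-548am-5p and miR-548au-5p and is called the miR-548c-5p profile below. miR-548p shared its profile with miR-548ah-3p, and miR-548av-3p differed from that pair by 1 of 20 reads. The profile of miR-548t-3p and miR-548aa differed from miR-548ap-3p by 2 reads. In some profiles of 1 read, such as that of miR-570-5p (also listed under a mir-548 hairpin), miR-548ai, miR-548aq-5p and miR-548q, equal values may be a coincidence. miR-548h-5p held no more reads than the miR-548c-5p profile in any library, so all 60 of its reads could also be among the 86 of that profile. How far they overlap cannot be told from the table.

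Of the 31 profiles, 9 met the level set for a test, a mean of 1 RPM across the 12 fetuses, and these 9 profiles (13 names) held 80.9% of the family's reads. The miR-548c-5p profile (MIMAT0004806) led with 86 reads over the 12 fetuses and a mean of 5.75 RPM, which ranked 376 among the 764 names with a read. It was followed by miR-548aq-3p (68 reads, 4.48 RPM) and miR-548h-5p (MIMAT0005928; 60 reads, 4.09 RPM), and these 3 profiles held 45.3% of the family's reads. miR-548d-5p came next with 40 reads, then miR-548f with 33, miR-548w with 31, miR-548as-5p with 25, the miR-548p profile with 20 and miR-548av-3p with 19. Reads in all 12 fetuses were found for 4 profiles only, those of miR-548c-5p, miR-548aq-3p, miR-548h-5p and miR-548d-5p. The lowest profile inside the filter was miR-548av-3p at 1.29 RPM, and the highest outside it was that of miR-548g-5p, miR-548x-5p, miR-548aj-5p and miR-548ar-5p at 0.994 RPM.

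The 22 profiles under the filter held 1 to 15 reads each over the 12 fetuses, and 15 of them held 3 or fewer. The 3 with most reads were the miR-548g-5p profile (8 reads in MNR and 7 in control), that of miR-548h-3p and miR-548z (7 in MNR and 5 in control) and that of miR-548t-3p and miR-548aa (5 in MNR and 5 in control). The other 25 names had no read in any of the 12 libraries. Of these 25, 3 had a read in the authors' pooled count, which covers further libraries. In a single library, a count of 0 allows up to 3 reads, or 1.58 to 5.85 RPM by library, counting error only. A member without a read in a library was thus not detected at that depth, and is not shown to be missing. Why members had no read was not tested.

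The number of members seen was set beside the depth of each library. The MNR libraries showed 13 to 18 of the 31 profiles (median 15.5) and the control libraries 7 to 17 (median 12.5). With at least 3 reads required the order turned, with means of 4.33 profiles in MNR and 6.5 in control. The lowest number, 7, came from control replicate 6, the shallowest library. At the depth of that library, the expected number was 9.2 ± 1.16 profiles in MNR and 8.69 ± 1.06 in control fetuses (SD, n = 6 per diet), a difference smaller than the spread between fetuses.

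**Figure D1:**
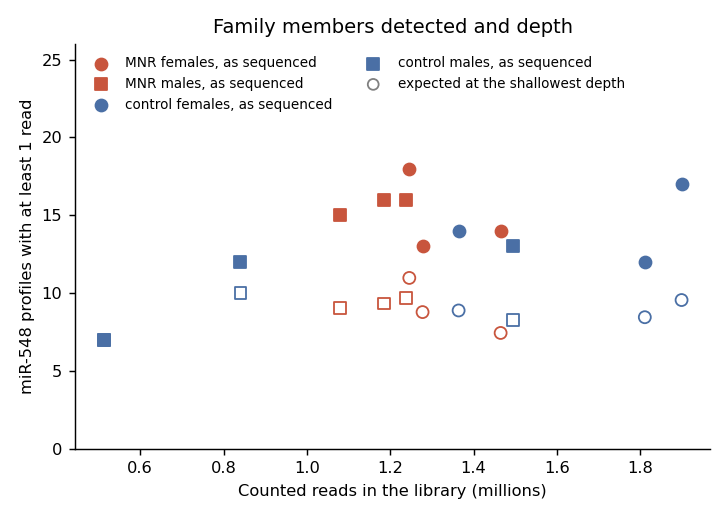
Number of miR-548 profiles with at least 1 read in each library (y axis) against the library's counted reads (x axis, in units of 1000000 reads), for MNR (red) and control (blue) females (circles) and males (squares). Filled symbols are the libraries as sequenced, from 7 to 18 profiles, and open symbols are the numbers expected at the depth of the shallowest library, which span 7 to 11.

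Summed over distinct profiles, the family held 25.3 to 34.5 RPM in MNR (median 26.7) and 27.9 to 41.6 RPM in control fetuses (median 33.9). The means were 27.8 ± 3.43 RPM in MNR and 34.1 ± 4.50 RPM in control (SD, n = 6 per diet). The ranges overlapped through MNR replicate 1, and the other 5 MNR fetuses lay below all 6 controls. The nearest of these, MNR replicate 4 and control replicate 1, stood at 27.81 and 27.86 RPM, a gap smaller than 1 read. Their 95% exact binomial intervals, 18.8 to 39.7 and 19.7 to 38.2 RPM, overlapped widely. In bulk tissue, fewer cells that hold a miRNA and less of it per cell cannot be told apart. Within females the levels were 34.5, 27.4 and 25.9 RPM in MNR and 27.9, 32.0 and 33.7 RPM in control replicates 1 to 3. Within males they were 27.8, 25.3 and 25.8 RPM in MNR and 41.6, 34.1 and 35.1 RPM in control replicates 4 to 6. All 3 MNR males were thus lower than all 3 control males, while females of the 2 diets overlapped. These sums are a description, carry no test and may count reads shared by several profiles more than once. Each rested on 18 to 64 reads, and the 95% exact binomial intervals of single MNR and control males overlapped.

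Both arms of the hairpins were present. A hairpin gives a 5p and a 3p strand, of which one is usually kept as the guide. By name, 9 profiles were of the 5p arm (231 reads), 13 of the 3p arm (152 reads) and 9 of no single named arm (89 reads). Of the reads with a named arm, 60.3% were 5p. Of the hairpins with entries for both arms and at least 1 read, 15 had more 5p reads and 4 more 3p reads. Several of these hairpins list entries of equal values, so the same reads may be counted for more than 1 hairpin. Some of the 15 rest on very few reads, with 2 on the 5p side of mir-548ap and 1 each for mir-548at and mir-548b. mir-548c had 86 reads on the 5p and 1 on the 3p side, and mir-548d-1 had 40 on the 5p and 1 on the 3p side. mir-548aq leaned the other way, with 1 read on the 5p and 58 on the 3p side. Of the entries of miR-548aq-3p the one under mir-548h-3 held most reads, 68, beside 60 of miR-548h-5p on the 5p side of that hairpin.

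The arms were then summed by diet. The 5p profiles together held 7.59 to 14.5 RPM in MNR (median 12.3) and 12.5 to 29.2 RPM in control (median 17.8). The 3p profiles held 5.48 to 16.0 RPM in MNR (median 10.8) and 3.90 to 16.7 RPM in control (median 8.62). The 5p share of reads with a named arm was 53.1 ± 15.5% in MNR and 67.2 ± 12.6% in control (SD, n = 6 per diet), with overlapping ranges. The miR-548c-5p and miR-548h-5p profiles had the most negative diet differences of the tested profiles over all fetuses (log2 differences -0.91 and -0.76). They summed to 6.48 ± 2.76 RPM in MNR and 13.2 ± 4.93 RPM in control. All miR-548h-5p reads could also be among those of the miR-548c-5p profile, so this sum may count reads more than once. The miR-548c-5p profile alone held 3.76 ± 1.70 RPM in MNR and 7.74 ± 2.57 RPM in control. The 5p profiles other than miR-548c-5p and miR-548h-5p summed to 5.18 ± 2.17 RPM in MNR and 6.20 ± 2.00 RPM in control (SD, n = 6 per diet). These arm sums are descriptions without a test. The miR-548c-5p and miR-548h-5p profiles were set apart with their differences known. Their contrast with the other 5p profiles is thus no separate result.

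**Figure D2:**
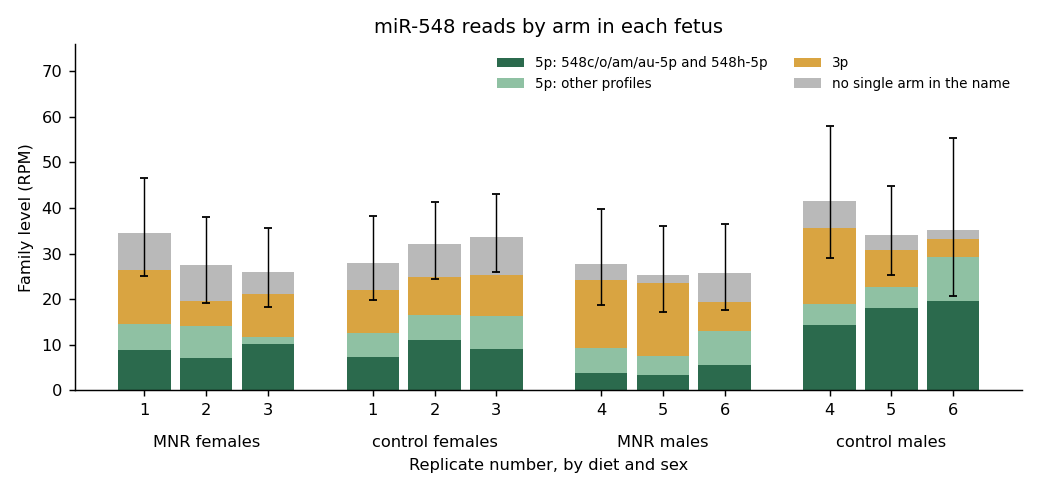
Summed level of the distinct miR-548 profiles in RPM (y axis) in each fetus (x axis, replicate number), split by arm, with black bars for the 95% exact binomial interval of the family total, counting error only. The dark green part, the miR-548c-5p and miR-548h-5p profiles, stands at 3.37 to 5.65 RPM in MNR males and 14.3 to 19.5 RPM in control males. These profiles may share reads, which the sum would count more than once.

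The study's main question was which miRNAs differ in fetal frontal cortex under maternal restriction. Over all fetuses, 0 of the 9 tested miR-548 profiles passed that test (limma on log2(RPM + 1) over 481 miRNAs, Benjamini-Hochberg adjusted p under 0.05). Among all tested miRNAs, 2.49% passed as higher and 0.208% as lower in MNR. At an unadjusted p under 0.05, 2 family profiles were lower and 0 higher in MNR, against 2.49% lower and 19.3% higher among all miRNAs. Tests on the recovered reads also called 0 of the 9. Over all 481 miRNAs, the calls in MNR by edgeR were 0.208% higher and 0.416% lower. DESeq2 called 0.416% as higher and 1.04% as lower, and the shares by voom equalled those by edgeR. The groups overlapped in all 9 profiles, while 3.12% of all miRNAs had MNR wholly above and 0.208% wholly below control. The median log2 difference of the 9 profiles was -0.44, with 7 below 0 and 2 above, while that of all 481 miRNAs was 0.23. Under median-ratio scaling the median of all miRNAs was 0.03. Family profiles may share reads, so these 9 are not independent.

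Among the 5p members, the miR-548c-5p profile ranged from 1.69 to 5.62 RPM in MNR (median 3.98) and from 5.13 to 11.7 RPM in control (median 6.89). It was below the control median in 6 of 6 MNR fetuses, and the groups overlapped through MNR replicates 1 and 3 and control replicate 1. The log2 difference was -0.91 ± 0.31 (SE; limma adjusted p = 0.0923). miR-548h-5p ranged from 1.61 to 4.78 RPM in MNR (median 2.49) and from 2.20 to 8.03 RPM in control (median 5.78). All 6 MNR fetuses lay below the control median, with a log2 difference of -0.76 ± 0.33 (SE; limma adjusted p = 0.2). Both were thus lower on average in MNR, and neither passed over all fetuses. Of the marker lists, 3 miRNAs passed in this comparison. Liver miR-122-5p fell to 0.228 ± 0.559 RPM in MNR, against 3.54 ± 3.29 RPM in control (SD, n = 6 per diet; limma adjusted p = 0.0436). Erythroid miR-451a rose to 547.1 ± 113 RPM in MNR, against 244 ± 81.5 RPM in control (SD, n = 6 per diet; limma adjusted p = 0.0093). Neural miR-129-5p rose to 1371 ± 168.8 RPM in MNR, against 951.2 ± 120.4 RPM in control (SD, n = 6 per diet; limma adjusted p = 0.0436). Their part in the miR-548 values was not tested.

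The other 5p members had smaller differences. miR-548d-5p ranged from 0.68 to 4.64 RPM in MNR (median 2.02) and from 0.67 to 4.74 RPM in control (median 2.85; log2 difference -0.22). miR-548as-5p ranged from 0 to 2.53 RPM in MNR (median 1.59) and from 0.53 to 5.85 RPM in control (median 1.41; log2 difference -0.28). The diets overlapped in both profiles, with control replicates 2 (2.76 RPM) and 6 (5.85 RPM) of miR-548as-5p above all MNR fetuses.

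Of the 3p members, miR-548aq-3p ranged from 2.42 to 7.42 RPM in MNR (median 5.54) and from 2.68 to 4.76 RPM in control (median 4.06; log2 difference 0.22 ± 0.28, SE). It was 1 of the 2 profiles with a difference above 0, and its control fetuses all lay within the MNR range. The miR-548p profile ranged from 0 to 1.69 RPM in MNR (median 0.805) and from 0 to 4.76 RPM in control (median 1.84; log2 difference -0.50), with 6 reads in MNR and 14 in control. miR-548av-3p, which differs from it by 1 read, had a log2 difference of -0.44.

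Of the members named without an arm, miR-548f was the other profile above 0, with 0 to 3.21 RPM in MNR (median 2.58) and 0 to 2.63 RPM in control (median 2.21; log2 difference 0.03). That sign turned to -0.10 under median-ratio and -0.086 under TMM scaling. miR-548w ranged from 0 to 2.78 RPM in MNR (median 1.61) and from 0.67 to 3.87 RPM in control (median 2.17; log2 difference -0.45). The limma adjusted p of the 7 profiles other than miR-548c-5p and miR-548h-5p lay between 0.5 and 0.97.

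**Figure D3:**
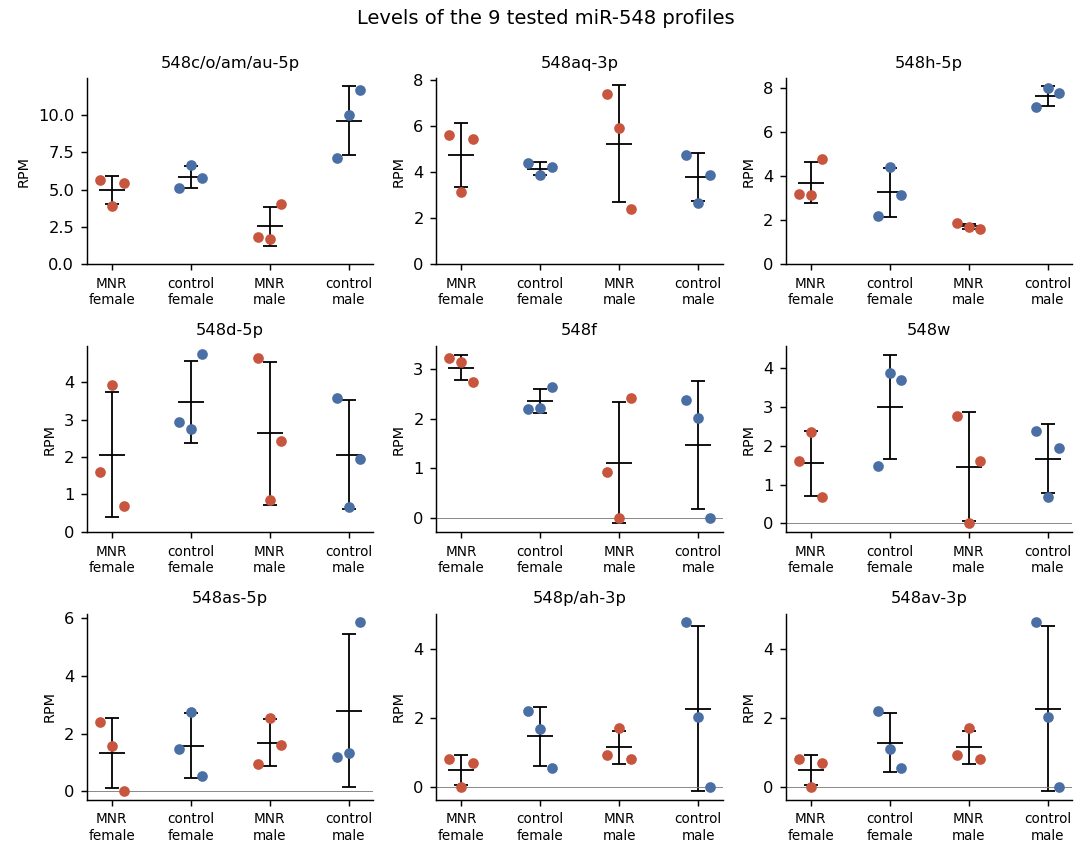
Level in RPM (y axis) of the 9 tested miR-548 profiles in MNR (red) and control (blue) fetuses of each sex (x axis), 1 point per fetus, with horizontal bars for the mean and vertical bars for the SD of 3 fetuses. In the panels of the miR-548c-5p profile (first) and of miR-548h-5p the MNR males sit at 1.69 to 4.04 and 1.61 to 1.85 RPM, below control males at 7.14 to 11.7 and 7.14 to 8.03 RPM.

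Diet was then compared within each sex, in 1 fit of the 4 groups of 3 fetuses. In females 0 of the 9 profiles passed (lowest limma adjusted p 0.731), and 0% of all 481 miRNAs passed in either direction. At an unadjusted p under 0.05, 0 profiles were higher or lower, against 10.2% higher and 0% lower among all miRNAs. edgeR, DESeq2 and voom called 0 there as well. The miR-548c-5p profile had 5.62, 3.91 and 5.46 RPM in MNR females and 5.13, 6.63 and 5.79 RPM in control females. miR-548h-5p had 3.21, 3.13 and 4.78 RPM in MNR females and 2.20, 4.42 and 3.16 RPM in control females. Both profiles overlapped between the diets, with log2 differences of -0.20 ± 0.38 for the miR-548c-5p profile and 0.16 ± 0.37 for miR-548h-5p (SE; 0.16 turned to -0.014 with edgeR and -0.044 with DESeq2). In miR-548f the female groups did not overlap, at 3.21, 3.13 and 2.73 RPM in MNR and 2.20, 2.21 and 2.63 RPM in control. Behind these were 4, 4 and 4 reads in MNR females and 3, 4 and 5 in control females. The gap between the groups was smaller than 1 read. The ratio of summed reads, 12 in either diet, was 1.27 (exact interval 0.523 to 3.1, counting error only). The log2 difference of miR-548f was 0.27 ± 0.54 (SE), and it was the 1 profile without overlap in females. Among all tested miRNAs, 14.8% had MNR females wholly above and 1.25% wholly below control females.

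In males, 2 of the 9 profiles passed and both fell in MNR, the miR-548c-5p profile and miR-548h-5p, and 0 rose. All miR-548h-5p reads could also be among those of the miR-548c-5p profile, so these 2 calls may rest on the same reads. Among all miRNAs 1.66% were called lower and 0% higher in MNR males. Those called lower were 8 names, of which 5 belong to these 2 profiles. The other 3 are markers of other tissues, miR-10a-5p and miR-10b-5p (HOX clusters) and miR-122-5p (liver). At an unadjusted p under 0.05 the same 2 profiles were lower and 0 higher, against 3.12% lower and 13.3% higher among all. With 1 entry kept per distinct profile across the table, 0.842% were lower and 0% higher, and of the family miR-548h-5p alone passed (adjusted p = 0.0497), and the miR-548c-5p profile did not (adjusted p = 0.0615).

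The miR-548h-5p level was 1.85, 1.69 and 1.61 RPM in MNR males and 7.14, 8.03 and 7.80 RPM in control males, or 1.72 ± 0.122 and 7.66 ± 0.462 RPM (SD, n = 3 per diet). Behind these were 2 reads in each MNR male and 6, 12 and 4 reads in control males, and 1 read was worth 0.669 to 1.95 RPM in the males. The groups did not overlap, and the log2 difference was -1.67 ± 0.37 (SE; limma adjusted p = 0.0367). The SD is smaller than 1 read in both groups and so understates the counting error. Over the summed reads, 6 in MNR and 22 in control males, the ratio was 0.222 (exact 95% interval 0.0736 to 0.564, counting error only).

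The miR-548c-5p profile had 1.85, 1.69 and 4.04 RPM in MNR males and 7.14, 10.03 and 11.7 RPM in control males, from 2, 2 and 5 reads in MNR and 6, 15 and 6 in control. Again no MNR male reached a control male. The means were 2.53 ± 1.31 RPM in MNR and 9.62 ± 2.31 RPM in control (SD, n = 3 per diet), with a log2 difference of -1.63 ± 0.38 (SE; limma adjusted p = 0.0367). The ratio of summed reads, 9 in MNR and 27 in control males, was 0.271 (exact 95% interval 0.112 to 0.594, counting error only). These 2 of the 9 profiles, which may share reads, were wholly lower in MNR males and 0 wholly higher. Among all tested miRNAs 4.37% were wholly lower and 19.3% wholly higher.

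The other 7 profiles did not pass in males (limma adjusted p 0.763 to 0.871), and their log2 differences lay between -0.33 (miR-548as-5p) and 0.31 (miR-548aq-3p). miR-548aq-3p stood at 7.42, 5.91 and 2.42 RPM in MNR males and 4.76, 2.68 and 3.90 RPM in control males, with overlap. Both male calls were also made by edgeR (log2 differences -2.33 for miR-548h-5p and -2.08 for miR-548c-5p, adjusted p = 0.0315) and by voom (adjusted p = 0.027), and neither by DESeq2 (adjusted p = 0.161 and 0.134). Over all 481 miRNAs in males, edgeR called 1.66%, voom 1.46% and DESeq2 0.624% lower, and all 3 called 0% higher. Under median-ratio scaling, with a median log2 difference of all miRNAs in males of 0.02 against 0.26 in RPM, they were -1.86 and -1.82 (adjusted p = 0.0132).

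Leaving out single fetuses ended the male calls more often than not. There were 0 calls in fits that left out MNR replicate 1, 3, 4 or 5, and 0 in those that left out control replicate 1, 2, 4, 5 or 6. Without MNR replicate 6 the miR-548c-5p profile alone passed (adjusted p = 0.0391, and 0.0771 for miR-548h-5p), and without control replicate 3 or MNR replicate 2 both passed. Females enter these fits through the shared spread. The log2 difference of miR-548h-5p lay between -1.72 and -1.64 over these fits and that of miR-548c-5p between -1.92 and -1.46. Control replicate 6 was the shallowest library. Without it the differences were as large for miR-548h-5p (-1.66) and slightly smaller for miR-548c-5p (-1.49), and the adjusted p was 0.111 for both.

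Of the markers of other tissues, 3 passed as lower in MNR males. Liver miR-122-5p was at 0 RPM in all 3 MNR males and at 4.76, 2.01 and 9.75 RPM in control replicates 4, 5 and 6, and passed as lower (log2 difference -2.51, limma adjusted p = 0.0367). miR-10a-5p and miR-10b-5p lie in the HOX gene clusters and mark hindbrain and trunk tissue. miR-10a-5p had 13.9, 9.28 and 9.69 RPM in MNR males and 285.5, 36.1 and 821 RPM in control males (log2 difference -4.13, limma adjusted p = 0.0367). miR-10b-5p had 1615, 416 and 415.8 RPM in MNR males and 2991, 2006 and 6908 RPM in control males (log2 difference -2.40, limma adjusted p = 0.0367). All 3 markers separated the males of the 2 diets without overlap, while among all tested miRNAs 4.37% were wholly lower and 19.3% wholly higher. miR-122-5p held only 22 reads over the 12 fetuses. In females the 3 markers did not pass, and miR-10a-5p and miR-10b-5p overlapped between the diets. There miR-122-5p had 0, 0 and 1.37 RPM in MNR and 1.47, 1.66 and 1.58 RPM in control (log2 difference -0.95). These females did not overlap, by a gap smaller than 1 read, while 1.25% of all tested miRNAs were wholly lower in MNR females. Among control males the 3 markers were highest in replicate 6 and lowest in replicate 5. The miR-548c-5p profile had 11.7 RPM in replicate 6 (6 reads) and 10.03 RPM in replicate 5 (15 reads). For miR-548h-5p the levels were 7.80 RPM (4 reads) and 8.03 RPM (12 reads). In replicate 6, 1 read was worth 1.95 RPM, more than either gap, so the counts do not order these replicates for the 2 profiles. The 4 HOX cluster miRNAs listed summed to 425.5 to 1630 RPM in MNR males and 2042 to 7729 RPM in control males, with miR-196a-5p at 0 throughout. Of these, miR-196b-5p was below the test level and overlapped, at 0 to 0.93 RPM in MNR males and 0 to 2.38 RPM in control males.

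Of the other marker lists 0 members passed in males. Erythroid miR-451a stood at 381.1 to 618.5 RPM in MNR males and 154.7 to 359.2 RPM in control males (log2 difference 1.19, limma adjusted p = 0.0699). The 3 erythroid miRNAs, led by miR-486-5p, summed to 3101 to 3816 RPM in MNR males and 3054 to 3173 RPM in control males. The 3 vessel and mesenchyme miRNAs, led by miR-143-3p, summed to 14726 to 37737 RPM in MNR males and 20418 to 30247 RPM in control males. The 3 muscle miRNAs, led by miR-1, summed to 103.4 to 311.5 RPM in MNR males and 92.8 to 130.6 RPM in control males. The 3 leukocyte miRNAs, led by miR-150-5p, summed to 99.6 to 154.8 RPM in MNR males and 52.2 to 69.0 RPM in control males, without overlap. Of these, miR-142-3p overlapped, at 10.12 to 16.15 RPM in MNR males and 8.33 to 13.64 RPM in control males. miR-150-5p, miR-223-3p and erythroid miR-451a did not overlap. Among all tested miRNAs 19.3% were wholly higher and 4.37% wholly lower in MNR males. The part of these tissues in the miR-548 result was not tested.

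**Figure D4:**
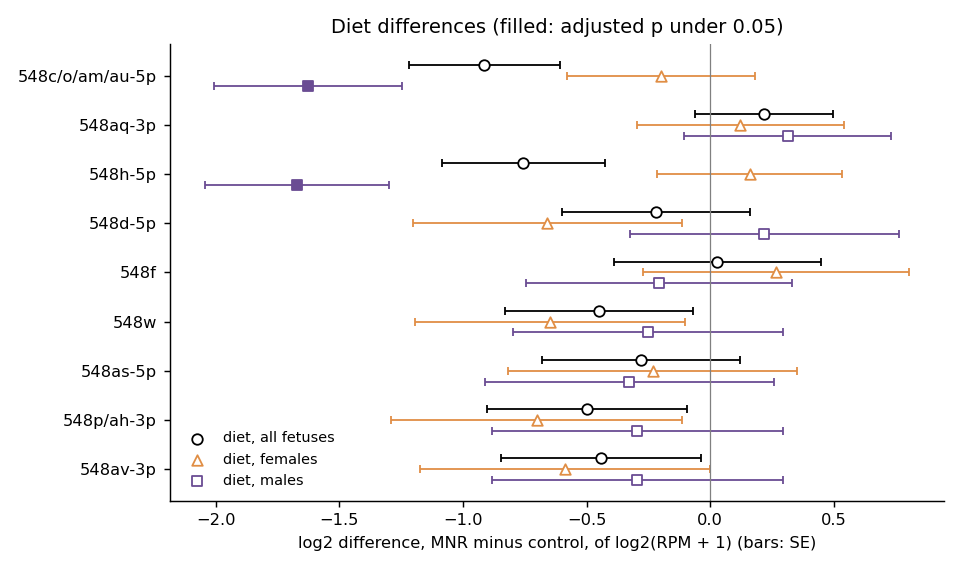
Log2 difference between MNR and control of log2(RPM + 1) (x axis) with its SE for the 9 tested miR-548 profiles (y axis), over all fetuses (black circles), in females (orange triangles) and in males (purple squares). Filled symbols passed at an adjusted p under 0.05, which only the male differences of the miR-548c-5p profile (-1.63) and miR-548h-5p (-1.67) did.

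Whether the sexes differed in their response was tested directly, and 0 of the 9 profiles passed (lowest limma adjusted p 0.772), with 0% of all miRNAs called. At an unadjusted p under 0.05, 2 family profiles were above 0 and 0 below, against 3.12% above and 1.87% below among all miRNAs. There were 0 family calls by edgeR, DESeq2 or voom. For miR-548h-5p the diet difference in females minus that in males was 1.83 ± 0.53 (SE; limma adjusted p = 0.772), and for the miR-548c-5p profile 1.43 ± 0.54 (SE; adjusted p = 0.784). Hence the calls in males are not shown to be particular to males.

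In miR-548h-5p the order of the sexes was opposite in the diets. MNR females, at 3.13 to 4.78 RPM, were all above MNR males, at 1.61 to 1.85 RPM. Control females, at 2.20 to 4.42 RPM, were all below control males, at 7.14 to 8.03 RPM. Such a crossing without overlap was found in 3 of the 481 tested miRNAs (0.624%), the others being miR-24-1-5p and miR-544a, named after their values were seen. Taken singly, 3.12% had MNR males wholly below MNR females and 5.61% had control males wholly above control females. By summed reads the female over male ratio was 2.20 in MNR (exact 95% interval 0.805 to 6.91) and 0.434 in control (0.216 to 0.856, counting error only). Averaged over diets, 0 profiles and 0% of all miRNAs differed between females and males. At an unadjusted p under 0.05, 1 profile was higher in females and 0 lower, against 1.04% higher and 2.49% lower among all. It was miR-548f (log2 difference 0.86 ± 0.38, SE; limma adjusted p = 0.987), and edgeR, DESeq2 and voom called 0.

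Related miRNAs gave a point of comparison. MADE1 also gave rise to miR-570, miR-579 and miR-603. Of these, miR-570-5p had 1 read, in MNR replicate 2, and miR-570-3p, miR-579 and miR-603 had 0 reads in the 12 libraries. The miRNAs listed from other transposable elements (miR-28, miR-95, miR-151a, miR-340, miR-544a and miR-652) were led by miR-340-5p at 3780 ± 460.3 RPM in MNR and 3539 ± 540 RPM in control (SD, n = 6 per diet). The least abundant of them, miR-544a (2.45 RPM over the 12 fetuses) and miR-652-5p (2.62 RPM), lay below the top 3 family profiles. All 10 of their names were tested, and 0 passed for diet over all fetuses, in females or in males. Their median log2 difference was 0.03 over all fetuses and 0.10 in males, against -0.44 and -0.29 for the family's 9 profiles. Over all 481 miRNAs the medians were 0.23 and 0.26. Most of the 10 names were more abundant than the family's profiles, which lay at 1.29 to 5.75 RPM. Counting error is larger at such levels, and family profiles may share reads. The medians carry no test.

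The authors' deposited table gives its own unadjusted p-values for diet. For miR-548h-5p the authors' deposited table has p = 2.75e-05 in males, 0.622 in females and 0.0379 over all fetuses. The male value rests on 6 reads in MNR and 22 in control. The SD among these males is smaller than 1 read in both diets and understates the counting error. For the miR-548c-5p profile the authors' deposited table has p = 0.0098 in males, 0.288 in females and 0.0102 over all fetuses. For miR-548f the authors' deposited table has p = 0.03 in females, where either diet held 12 reads.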

How the data were processed

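Small RNA libraries were made from total RNA with a column kit and an Illumina small RNA kit, per the labels' protocols. The submitters' processing notes name the human build hg18, without its role; no aligner or counter is given in the sources used here. The authors deposited RPM per fetus (2 decimals, over 2234 entries), a count of pooled reads for each entry and unadjusted p-values for 3 comparisons. What 1 read is worth was read from the steps between low RPM values. All values above 0 (100%) were then whole reads to within 0.0051 RPM, in all 12 libraries. Reads carry no molecular identifiers, so intervals cover counting error only.

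For each mature name the entry with most recovered reads was kept, and names with equal values in 12 libraries formed 1 profile. Repeated entries made 38.5 to 44.3% of the reads in the RPM totals. limma 3.58.1 with a trend was fitted in R 4.3.3 to log2(RPM + 1) of the 481 names with a mean of at least 1 RPM, with Benjamini-Hochberg adjustment over all of them; differences on this scale understate changes of low miRNAs. Diet was fitted over 12 fetuses, and the comparisons by sex in 4 groups of 3. Alternatives on the recovered reads were edgeR 4.0.16, DESeq2 1.42.0 and voom. The fits were tested on simulated data. On recovered reads edgeR called 8 names lower in MNR males, and over all fetuses 1 higher and 2 lower. Replicate numbers were given in accession order and pair no fetuses, and the labels name no mother, batch or date; p-values measure the spread between these fetuses.

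The members, gene lists and tests were chosen with earlier results of these data known. The text names every profile that reached the test level, the 3 largest below it, and from each comparison list its most abundant member and those called. miR-544 is listed in the table as miR-544a, and no seed groups were made because no sequences were used here.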

Additional observations from a re-analysis of the deposited data

Results flagged for a closer look

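The family sum of MNR replicate 1, at 34.5 RPM, stood apart from the other MNR fetuses, of which the next was at 27.8 RPM. miR-548f had 0 RPM in control replicate 6, while the next control was at 2.01 RPM; at the depth of that library 3 reads are worth 5.85 RPM. These were 2 of 24 groups of 6 fetuses examined, and chance flags about 1 in 20.

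In miR-548h-5p females and males lay in opposite order in MNR and in control cortex without overlap, with a female minus male diet difference of 1.83 on the log2 scale that did not pass the test (limma adjusted p = 0.772; adjusted p 0.0718 to 0.997 over the alternatives).

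The authors' deposited table gives 1482 pooled reads for the 31 distinct family profiles, 1010 more than the 12 libraries hold, from libraries that it does not name. The 12 libraries held 31.8% of the family's pooled reads, near the median of 31.6% over all tested miRNAs. Among the tested profiles this share was 25 to 75.8%, with miR-548as-5p (25 of 33 reads) and miR-548h-5p (60 of 101 reads, 59.4%) at the upper end and miR-548f (33 of 132 reads) at the lower.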

How the results depend on the processing

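Over all fetuses, in females, for sex and for sex by diet, the number of family profiles called was 0 under every alternative run. In males, 2 profiles were lower in the main fit. This number was 0 with no filter on low values, 0 with DESeq2, 0 with only the fetuses of that sex, 1 with a mean of at least 5 RPM, where miR-548h-5p is not tested, and 1 with one entry per distinct profile. edgeR without control replicate 6, added after the data were seen, gave 0. Leaving out single fetuses gave 0 to 2. The miR-548c-5p profile passed in 11 of 25 alternatives and miR-548h-5p in 10 of 24, with adjusted p 0.01 to 0.199 and 0.00458 to 0.163, and both kept their direction in all of them. Where no value above shows the cause of a loss, the cause was not tested.

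Some small differences changed sign. Over all fetuses miR-548f was at -0.10 under median-ratio scaling, -0.086 under TMM scaling, -0.19 with edgeR, -0.20 with DESeq2 and -0.43 with voom, and at -0.26 to 0.32 with single fetuses left out. miR-548h-5p in females was at -0.014 with edgeR, -0.044 with DESeq2 and -0.030 to 0.35 with single fetuses left out. In males, leaving out single fetuses gave -0.17 to 0.64 for miR-548d-5p, -0.77 to 0.25 for miR-548f, -0.66 to 0.30 for miR-548w, -0.62 to 0.21 for miR-548as-5p and -0.98 to 0.28 for miR-548p; edgeR without control replicate 6 gave 0.16 for miR-548as-5p.

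The family level was 108 RPM in MNR and 170.3 RPM in control with every entry counted, 45.1 and 63.1 RPM with every mature name counted, and 47.9 and 58.9 RPM with one entry per name as denominator. The 5p share was 76% in MNR and 86.8% in control by entry, and 69.5% and 81.8% by name. Members detected were 52 in MNR and 44.5 in control by entry, 23.7 and 19.5 by name, 4.33 and 6.5 with at least 3 reads, and 9.2 and 8.69 at the shallowest depth. Left-out fetuses gave family levels of 26.5 to 28.3 RPM in MNR and 32.6 to 35.3 RPM in control, 5p shares of 49.3 to 57.3% in MNR and 63.0 to 70.0% in control, and 14.8 to 15.8 members in MNR and 11.6 to 13.6 in control. Merging near-identical profiles, added after the data were seen, moved none of these beyond 1 SD. No paired analysis was possible because the labels give no shared replicate numbers. Depth limits all values, since most members held under 20 reads in total.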
